A study of Mus musculus with 120 samples.

Results

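The histone genes of the mouse liver were followed through 5 RNA populations in 2 genotypes. They were taken by symbol, as all genes whose names begin with H1f, H2a, H2b, H3, H4 or Hist with a number, without names that contain -ps. This gave 62 genes (69 transcripts) of the 12252 genes in the table. Of these, 52 are replication-dependent genes (5 H1, 13 H2A, 12 H2B, 10 H3 and 12 H4 genes) and 10 are variant or other histone genes (H1f0, H2aj, H2aw, H2ax, H2az1, H2az2, H3f3a, H3f3b, H3f3c and H4f16). The name rule kept H3f3c, although it is annotated as a processed pseudogene. The livers came from mice without the clock repressors Cry1 and Cry2 (Cry1-/- Cry2-/-, here CryKO) and from C57BL/6 mice (WT), sampled every 4 h over the day (6 times) with 2 mice per time and genotype. Times are Zeitgeber times (ZT), counted from lights on at ZT0. The WT mice were males of 8 to 12 weeks that were fed during the night only; age, sex and feeding of the CryKO mice are not given in the sources used here. No treatment is named for either genotype. From each liver, total RNA was sequenced from the nucleus (NT), from the cytoplasm (CT) and without fractionation (UT), and poly(A)-selected RNA from the nucleus (NA) and the cytoplasm (CA), which makes 120 libraries in all and 12 for each population and genotype.

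Replication-dependent histone genes supply the core histones H2A, H2B, H3 and H4 and the linker histone H1 during DNA synthesis, and lie in clusters. Their mRNAs are the only ones of animal cells that as a rule carry no poly(A) tail: they end just after a conserved stem-loop that the stem-loop binding protein (SLBP) holds during processing, translation and decay. Variant histones such as H3.3 or H2A.Z are made throughout the cell cycle, mostly from genes with introns and from polyadenylated mRNA. Some replication-dependent genes are also known to give polyadenylated mRNA in differentiated cells, and hepatocytes of the adult liver rarely divide. Poly(A) selection therefore separates both kinds of ending, and ribosome-depleted total RNA holds both.

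In the annotation of the same build (GRCm38), 43 replication-dependent genes lie on chromosome 13 between 21715763 and 23764406 and the other 9 on chromosome 3, and 50 of the 52 have a single exon. The 10 remaining genes are spread over 7 chromosomes, and 5 of them have a single exon. A stem-loop, searched on the gene strand as 16 letters with a paired stem of 6 base pairs, opening with GG, closing with CC and topped by a T-A pair, around a loop of 4 letters that begins with TT, was found in 37 of the 69 histone transcripts and in 28 of 40315 transcripts of other genes (0.0695%). A stricter form, whose middle letters are C, 4 T and CAG and whose only free letters are the 2 after GG and the 2 before CC, was found in 28 histone transcripts and in 0.0223% of the others. The polyadenylation signal AATAAA stood in the last 50 bases of 14 histone transcripts and of 37.8% of the others. The 37 stem-loops took 7 forms, of which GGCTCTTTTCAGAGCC was shared by 19 genes of the H1, H2A, H2B and H3 types and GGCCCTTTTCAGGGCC by 7 H4 genes. The following ends are those of genes on which the results turn, on the gene strand from 5′ to 3′, with the stem-loop or AATAAA in capitals. The first set holds genes whose RNA was almost absent from the poly(A) libraries, H4c2 (chr13:23757366-23757381, plus strand), H2ac20 (chr3:96220418-96220433, minus), H4c4 (chr13:23581950-23581965, plus) and H3c6 (chr13:23561903-23561918, minus), with the positions of the capitals:
H4c2: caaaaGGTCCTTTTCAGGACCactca
H2ac20: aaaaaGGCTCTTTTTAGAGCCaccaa
H4c4: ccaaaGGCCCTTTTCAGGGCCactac
H3c6: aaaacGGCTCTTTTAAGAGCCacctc

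The second set holds genes with RNA in both kinds of library, in the case of H4c14 in the nucleus alone. H1f2 and H4c14 have a stem-loop and, at the annotated end farther downstream, an AATAAA (H1f2 at chr13:23739512-23739527 and chr13:23740342-23740347, plus; H4c14 at chr3:96262939-96262954 and chr3:96261709-96261714, minus). H2bc21 (chr3:96223717-96223722, plus), H1f0 (chr15:79030483-79030488, plus) and H3f3b (chr11:116021999-116022004, minus) have the AATAAA and no stem-loop in their annotated transcripts:
H1f2 stem-loop: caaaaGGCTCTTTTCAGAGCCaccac
H1f2 poly(A) signal: ttctAATAAAaagcgtttagtttt
H4c14 stem-loop: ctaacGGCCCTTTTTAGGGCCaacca
H4c14 poly(A) signal: ataaAATAAAatcttaaaaacaac
H2bc21 poly(A) signal: tattAATAAAgttaccgattagtt
H1f0 poly(A) signal: ttaaAATAAAactggaaaggaaaa
H3f3b poly(A) signal: tacaAATAAActagtaagtttgga

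The libraries held 6.80 to 36.20 M mRNA counts, with medians of 8.48 M (CryKO) and 9.53 M (WT) in NT and of 24.68 M and 25.78 M in UT. Alb, the albumin gene and a defining marker of hepatocytes, had WT medians of 7961 CPM in NT and 59687 CPM in UT, where CPM is the count divided by the scaled mRNA library size in M. The liver labelled WT ZT4 replicate 1 stood apart with 1119 CPM of Alb in NT and 12633 CPM in UT. The liver labelled WT ZT0 replicate 2 had the smallest scaled CT library of WT (5.21 M) and the highest summed replication-dependent level in CT. Each mouse was left out in turn, and counts of members that this moved by over 1.5 times are given with their results. Cry1 was at a median of 9.67 CPM in CryKO and 23.5 CPM in WT UT libraries but at 53.8 CPM in CryKO and 17.9 CPM in WT NT libraries, so that gene-level counts, which do not separate the deleted exons, do not check the labels. CryKO and WT livers with the same time and replicate number did not deviate together, and genotype and animal batch cannot be told apart. The same holds for RNA population and library kit, since total and poly(A) libraries were made with different kits.

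Replication-dependent histone RNA was higher in total than in poly(A) RNA, and single genes ranged from near absence in poly(A) RNA to even levels in both. Summed over the 52 genes, the level was 6.74, 9.07 and 17.3 times as high in NT as in NA of the same WT liver (lowest, median and highest of 12) and 3.22, 3.96 and 6.28 times as high in CT as in CA. The sum of the variant and other genes had median ratios of 0.975 and 0.700. In WT nuclei, 31 of the 36 replication-dependent genes that could be tested passed the threshold for more RNA in NT than in NA (adjusted p under 0.01 together with a log2 fold change over 2), none passed for less, and the median log2 fold change was 6.33. Of the 9 variant or other genes tested, 1 (H4f16) was higher and the median was -0.02. Over all 11865 genes tested, 2.82% were called higher and 0.767% lower (3.59% in either direction), with a median of -0.20. In WT cytoplasm, 31 of 37 replication-dependent genes were higher in CT than in CA (median 7.52), against 2 of 10 variant or other genes (H4f16 and H2aj; median -0.31), with 3% of all genes called higher and 0.3% lower. The median of the replication-dependent genes was 7.45 with the 3 genes whose CA libraries were all at 0 set at their lower bounds, and stayed at 6.33 in the nucleus.

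Not every member could be tested: 45 of 62 passed the minimum of 10 counts in 12 libraries in the nucleus and 47 in the cytoplasm, and 14 and 27 of these reached 10 counts in no poly(A) library, so that they had to differ. A filter on the UT libraries, which the comparison does not use, let 61 members through in each compartment, and 48 of them were called higher in each. UT is itself total RNA of the same livers, so members nearly absent from poly(A) RNA also pass this filter. These counts are a description, and the share of all genes under this filter is not given here. The levels of the members tested are plotted by their annotated 3′ ends.

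**Figure D1:**
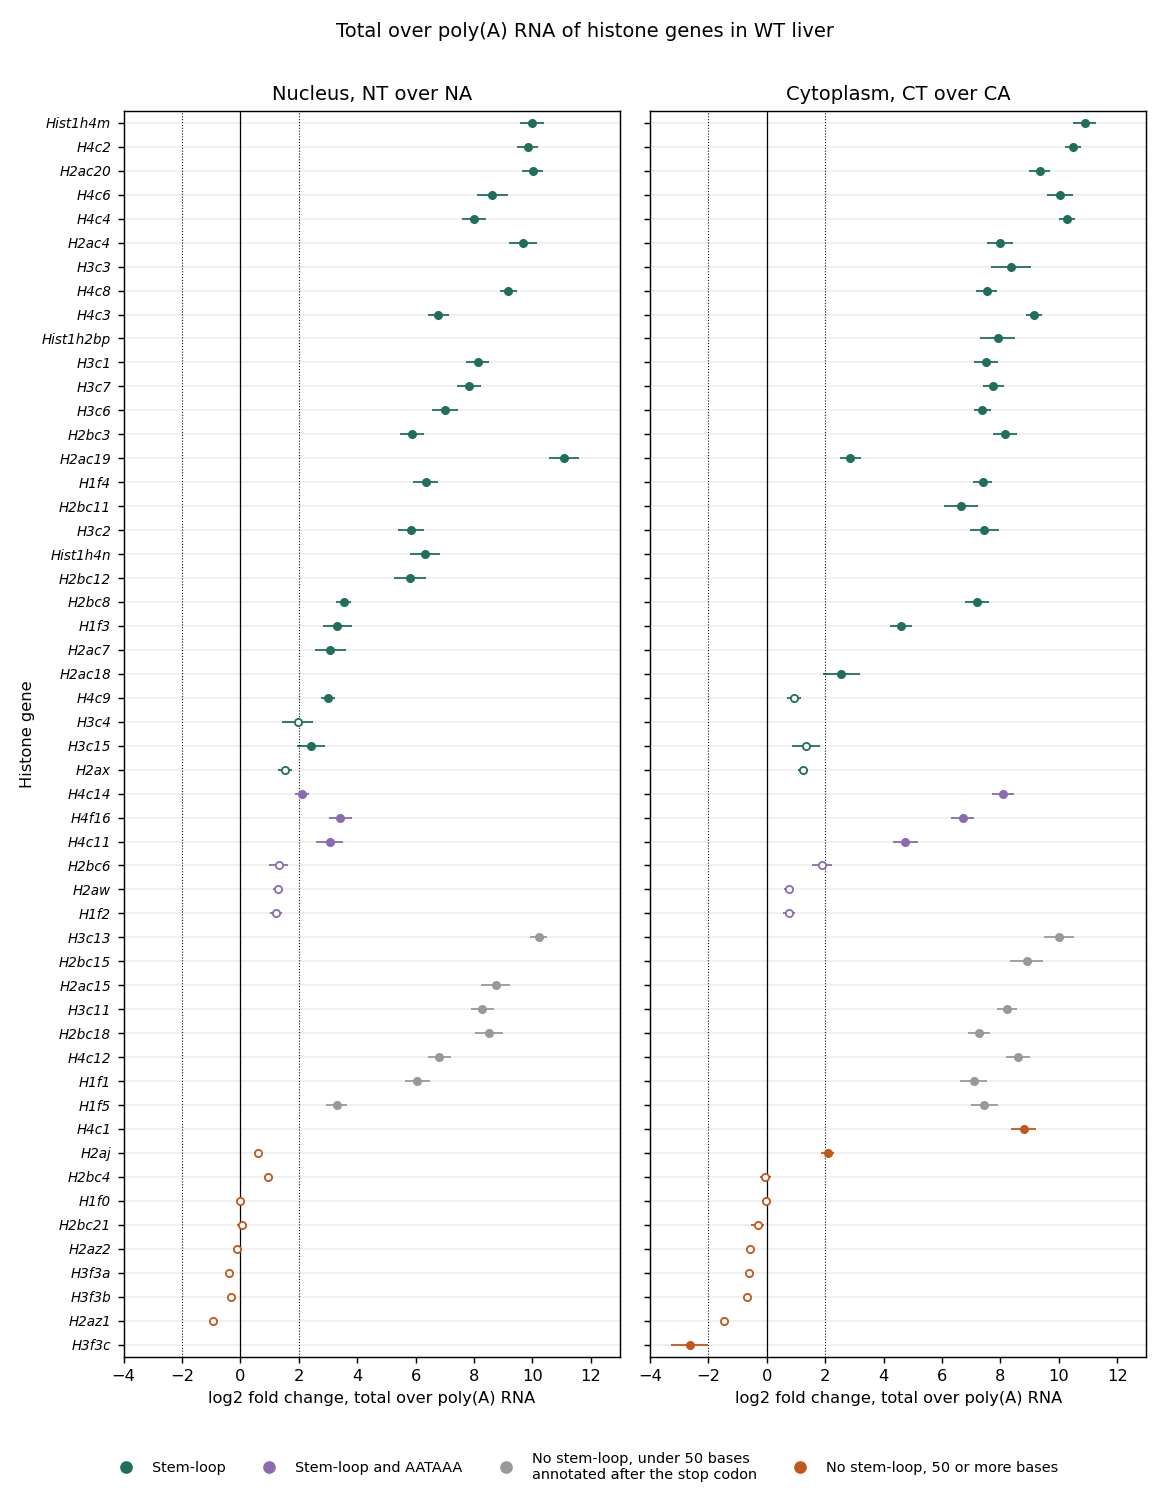
Log2 fold change of total over poly(A) RNA in WT nuclei (left) and cytoplasm (right) of each histone gene tested, with 12 libraries per population, the bar showing the SE, filled points those called and dotted lines a log2 fold change of 2 either way. Genes with a stem-loop reached 11.09. Those without one and with 50 or more annotated bases after the stop codon lay between -1.45 and 0.94, except H4c1 (8.80) and H2aj (2.08) in the cytoplasm. H3f3c, a processed pseudogene without an annotated stop codon, is drawn in the colour of that group (-2.64 in the cytoplasm).

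Genes for histone H4, the partner of H3 in the nucleosome core, showed the widest gaps in the cytoplasm. H4c4 had 87.1, 126 and 182 CPM in CT (lowest, median and highest of 12 WT libraries) against 0, 0.0747 and 0.310 CPM in CA, a log2 fold change of 10.29 ± 0.27 (SE). H4c8 had 129, 162 and 278 CPM in CT against 0, 0.706 and 2.52 CPM in CA. In both genes every total library was above every poly(A) library. Hist1h4m had the highest value of the compartment, 10.89 ± 0.38, but 89.3% of its 65-base windows, the length of the reads, also occur in other transcripts, so that its share of the counts is uncertain. H4c2 was at 10.49 ± 0.27 and H4c6 at 10.04 ± 0.45. Their CA libraries summed to 1.23 counts each, so that the ratio of pooled counts has a 95% counting interval of 689 to 151841 for H4c2 and of 470 to 103608 for H4c6 (exact Clopper-Pearson, counting error only). In the nucleus H4c2 had 9.83 ± 0.36 and Hist1h4m 9.98 ± 0.41.

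Among H2A genes, which form the dimer with H2B, H2ac20 was found almost only in total RNA. It had 9.38, 16.5 and 29.1 CPM in NT against 0, 0 and 0.0652 CPM in NA, and 6.08, 9.95 and 17.6 CPM in CT against 0, 0 and 0.101 CPM in CA, with log2 fold changes of 10.01 ± 0.36 and 9.34 ± 0.35. The CA count of H2ac20 summed to 1.12, with a counting interval of 308 to 68059 for the pooled ratio. H2ac4 was at 0 in all 12 NA libraries and summed to 601 counts in NT, which makes it at least 613-fold higher (floor of 3 counts over the group). H2ac19 had 49.1, 69.6 and 132 CPM in NT against 0, 0 and 0.441 CPM in NA (11.09 ± 0.52), the highest value of the nucleus. In the cytoplasm the same gene had 45.9, 102.1 and 145 CPM in CT but 0.822, 10.6 and 36.5 CPM in CA, and its log2 fold change was 2.85 ± 0.36. All of its 65-base windows also occur in H2ac18 and in the annotated locus Gm20634, so that reads of this length cannot separate them.

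Of the H3 genes, H3c13 was at 3.55, 11.2 and 19.5 CPM in CT and at 0 in all 12 CA libraries, at least 579-fold higher in CT. In the nucleus it had a log2 fold change of 10.22 ± 0.29 on 1641 counts in NT and 2.08 in NA, with a counting interval of the pooled ratio of 695 to 20774. H3c6 had 11.7, 22.3 and 32.6 CPM in NT against 0, 0.0852 and 0.866 CPM in NA. Its groups did not overlap in either compartment. The exceptions were H3c4, which was not called in the nucleus (1.96 ± 0.52), and H3c15, which had 2.42 ± 0.47 in the nucleus and 1.33 ± 0.48, below the threshold, in the cytoplasm. Of the 65-base windows of H3c13, 79% also occur in other transcripts, those of H3c15 among them. For H3c15 itself 63% are shared and for H3c6 65.2%, so that the split of counts between such genes is uncertain.

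The linker histone genes were split. H1f4 had 44.8, 54.9 and 97.2 CPM in NT against 0.0361, 0.410 and 2.70 CPM in NA, and 53.04, 82.4 and 141 CPM in CT against 0, 0.411 and 1.41 CPM in CA (6.34 ± 0.44 and 7.39 ± 0.32). H1f2, in contrast, had 32.9, 50.6 and 116.6 CPM in NT and 16.6, 21.4 and 44.8 CPM in NA, and 93.4, 124 and 188 CPM in CT and 34.3, 83.6 and 137 CPM in CA. The H1f2 groups overlapped, and its log2 fold changes of 1.22 ± 0.19 and 0.75 ± 0.21 did not reach the threshold. H1f1 (6.06 and 7.08), H1f3 (3.31 and 4.61) and H1f5 (3.30 and 7.45) were called higher in both compartments. The cytoplasmic value of H1f5 rests on 3 counts in CA (counting interval of the pooled ratio 89.1 to 1273).

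**Figure D2:**
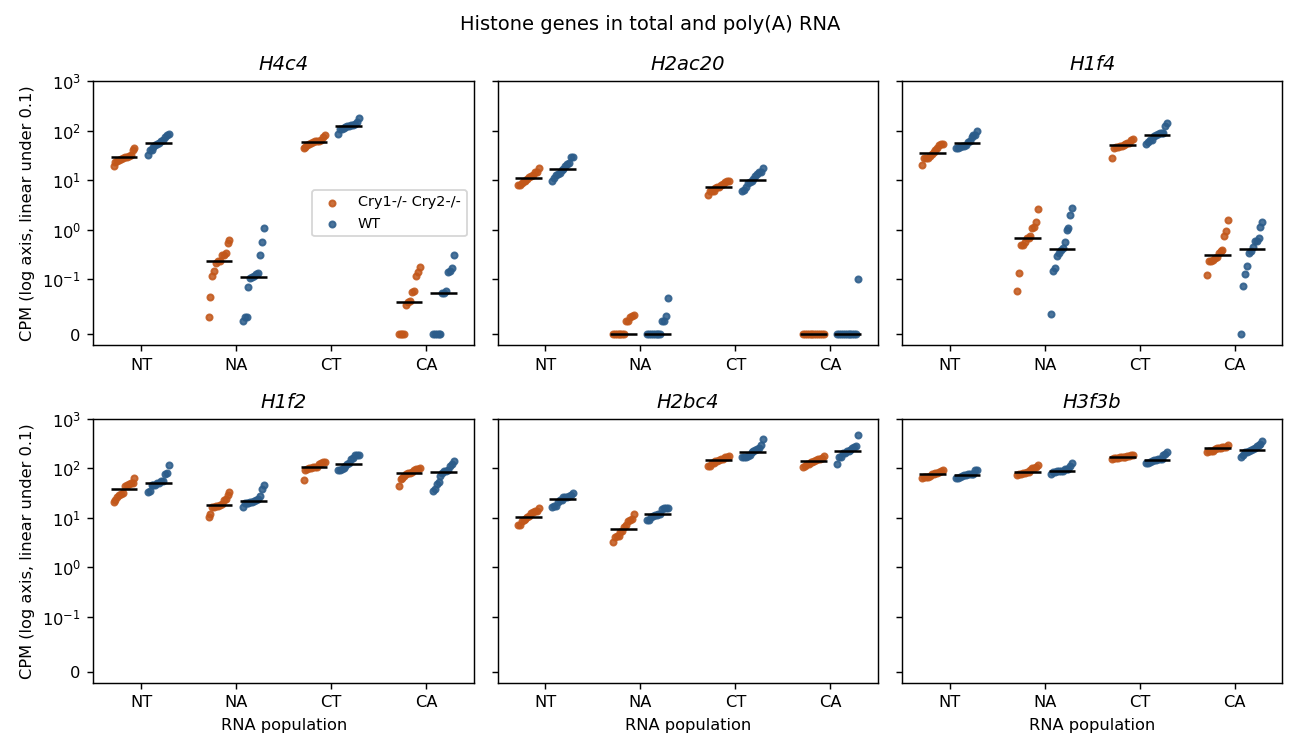
Levels (CPM, log axis that is linear under 0.1) of 6 histone genes in each of 12 CryKO and 12 WT libraries of NT, NA, CT and CA, sorted by level within a group, with the median as a bar. H4c4, H2ac20 and H1f4 were at or near 0 in NA and CA, whereas H1f2, H2bc4 and H3f3b were present in all 4 populations.

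The replication-dependent gene with the highest poly(A) level was H2bc4, an H2B gene, in the cytoplasm and H1f2 in the nucleus. H2bc4 had 165, 217 and 390 CPM in CT and 122, 221 and 468 CPM in CA, with a log2 fold change of -0.04 ± 0.17, and was the most abundant H2B gene per length in UT of WT. It was also low in the nucleus, with 16.2, 24.4 and 32.1 CPM in NT and 8.84, 11.7 and 15.8 CPM in NA, groups that did not overlap (0.94 ± 0.13). H2bc21 was alike in total and poly(A) RNA in both compartments (0.05 ± 0.17 and -0.31 ± 0.23). Both genes have no stem-loop in their annotated transcripts. H2bc8, with a stem-loop, had 8.82, 12.3 and 23.02 CPM in CT against 0, 0 and 0.378 CPM in CA, but was less depleted in NA (3.53 ± 0.27 in the nucleus and 7.20 ± 0.40 in the cytoplasm). H4c14, which has both sequences shown above, had the same order: 11.8, 17.5 and 22.7 CPM in NT against 1.26, 3.49 and 8.68 CPM in NA (2.11 ± 0.24), but 16.8, 22.9 and 69.3 CPM in CT against 0, 0.0857 and 0.223 CPM in CA (8.09 ± 0.37). H4c9 was the other way round, at 2.99 ± 0.24 in the nucleus and 0.93 ± 0.23, not called, in the cytoplasm.

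Of the variant and other genes, H3f3a, H3f3b, H1f0, H2az1 and H2az2 were even between both kinds of library or lower in total RNA, and H2ax, H2aw, H2aj and H4f16 had values above 0. H3f3b, which encodes H3.3, had 63.9, 74.3 and 93.6 CPM in NT and 75.7, 89.2 and 130 CPM in NA, and 126, 150 and 209 CPM in CT and 170, 238 and 350 CPM in CA (-0.33 ± 0.08 and -0.68 ± 0.12). H3f3a, the other H3.3 gene, was at -0.39 ± 0.09 and -0.60 ± 0.11. H1f0, the linker histone of resting cells, was even in both (-0.02 ± 0.12 and -0.04 ± 0.12). H2az1, which encodes H2A.Z, was at -0.93 ± 0.09 in the nucleus and -1.45 ± 0.13 in the cytoplasm with no overlap of its groups, and H2az2 was at -0.12 ± 0.13 and -0.58 ± 0.12. H2ax, whose protein is phosphorylated at DNA breaks, has a stem-loop and was at 1.53 ± 0.24 and 1.24 ± 0.17, short of the threshold. H2aw was at 1.27 ± 0.16 and 0.74 ± 0.16. H2aj was called in the cytoplasm only (0.61 ± 0.11 and 2.08 ± 0.21). H4f16, an H4 gene with a stem-loop and a distal AATAAA, had 4.51, 6.58 and 18.4 CPM in NT against 0.142, 0.462 and 2.40 CPM in NA, and 5.84, 11.2 and 23.8 CPM in CT against 0, 0.0722 and 0.437 CPM in CA, without overlap (3.42 ± 0.41 and 6.70 ± 0.39). H3f3c was the only member past the fold threshold in the other direction (-2.64 ± 0.63 in the cytoplasm; at any fold change, 3 members were lower in the nucleus and 5 in the cytoplasm at the same adjusted p), but 62% of its windows occur in other transcripts, most of them of H3f3a.

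The values differed by annotated end. Over all genes, 2.82% in the nucleus and 3% in the cytoplasm were called higher. Of all members called higher, 14 and 27 reached 10 counts in no poly(A) library and had to differ. They were not split by end, so the counts by end are a description. Of the genes with a stem-loop, 25 of 30 tested in the nucleus and 24 of 30 in the cytoplasm were called higher in total RNA (medians 5.86 and 7.42). Among those that also have AATAAA in their last 50 bases (H1f2, H2ac8, H2aw, H2bc6, H4c11, H4c14 and H4f16), 3 of 6 were called in each compartment, with medians of 1.71 and 3.32. In H2bc6 the AATAAA is in a transcript without the stem-loop. Of 9 genes with no stem-loop and 50 or more annotated bases after the stop codon, none of 8 tested was called in the nucleus and 2 of 9 in the cytoplasm (medians -0.07 and -0.31). The exception was H4c1, which had 3.35, 10.8 and 14.9 CPM in CT against 0, 0 and 0.170 CPM in CA (8.80 ± 0.43; counting interval of the pooled ratio 222 to 6654). H2aj was the other gene called. The other 16 genes without a stem-loop say nothing on their ending. Their annotation ends within 50 bases of the stop codon, except that of H3f3c, a processed pseudogene without an annotated stop codon. Of these genes, 7 of 7 tested in the nucleus and 7 of 8 in the cytoplasm were called higher, and H3f3c was the exception. A match is a description of the annotated sequence, and no RNA end was measured.

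Transcripts of a single gene also differed. Of the 2 H2bc6 transcripts, Hist1h2be-202 has a stem-loop 29 bases after the stop codon, with 1861 annotated bases beyond it, and Hist1h2be-203 has no stem-loop and ends after an AATAAA (chr13:23585531-23585546 and chr13:23618989-23618994, minus strand), shown here because they share a gene:
H2bc6 Hist1h2be-202 stem-loop: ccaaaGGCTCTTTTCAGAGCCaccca
H2bc6 Hist1h2be-203 poly(A) signal: aataAATAAAtgaaaatta

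Hist1h2be-202 was at 1.51, 4.46 and 10.1 CPM in CT against 0, 0.0963 and 0.528 CPM in CA (4.76 ± 0.54), and at 0.387, 1.58 and 3.55 CPM in NT against 0, 0 and 0.0416 CPM in NA, too low there for the test. Hist1h2be-203 was at 0, 0.404 and 1.81 CPM in CT and 0.186, 1.07 and 4.38 CPM in CA (-1.06 ± 0.55), and at 0.48 ± 0.32 in the nucleus, with overlapping groups. It is annotated as a processed transcript without a coding sequence, so it does not stand for an H2B mRNA with another ending. It overlaps H1f4 on the same strand, and 19% of its 65-base windows occur there, so that its share of the counts is uncertain. Of the transcripts of H2aj, H2afj-202 had 10.1, 14.2 and 21.2 CPM in CT against 0, 0 and 0.587 CPM in CA (6.41 ± 0.64) and H2afj-201 had 0.75 ± 0.28. One H2az1 transcript, H2afz-207, was lower in NT than in NA (-3.40 ± 0.73). In all, 31 of 50 histone transcripts tested were higher in NT and 34 of 53 in CT, against 13.6% and 11.7% of all transcripts tested. As with the genes, transcripts near 0 in poly(A) RNA could pass the filter only through the total libraries and had to differ. How many did was not counted, so these shares are a description. Counts of single transcripts rest on the way kallisto shares reads between them.

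The CryKO livers showed the same order of total and poly(A) RNA. In their nuclei 19 of 25 replication-dependent genes tested were higher in NT than in NA (median 5.27) and in their cytoplasm 31 of 37 were higher in CT than in CA (median 6.81), with 2.43% and 2.08% of all genes called higher and 1.35% and 0.202% lower (3.78% and 2.28% in either direction). As in WT, part of these genes had to differ: 9 of the 19 and 27 of the 31 reached 10 counts in no poly(A) library. The count of members higher in the nucleus, 20, was 46 without a filter on low counts and 43 with the filter on UT libraries. The single member lower in the cytoplasm, H3f3c, was not called without CryKO ZT0 replicate 2, ZT16 replicate 2 or ZT20 replicate 2. H2ac19 was at 23.9, 35.6 and 71.5 CPM in NT and at 0 in all 12 NA libraries of CryKO, at least 5692-fold higher in NT. H2ac20 was at 0 in all 12 CA libraries and at least 459-fold higher in CT, and H4c6 at least 366-fold higher. Hist1h4m (10.85 ± 0.30), H4c4 (9.70 ± 0.20), H4c2 (9.64 ± 0.26) and H4c12 (9.19 ± 0.31) led the cytoplasm. Except for H4c4, with 12.2 counts, their CA libraries summed to 1.21 to 2.45 counts, which left counting intervals from 795 to 175047 for Hist1h4m, from 374 to 11176 for H4c2 and from 276 to 8246 for H4c12. H4c2 (9.78 ± 0.30), H2ac20 (9.38 ± 0.28), Hist1h4m (8.08 ± 0.41), H4c8 (7.98 ± 0.28) and H2bc18 (7.33 ± 0.39) followed H2ac19 in the nucleus. The lowest values were those of H3f3a (-0.69 ± 0.12), H2az1 (-0.46 ± 0.08), H3f3b (-0.25 ± 0.08) and H2az2 (-0.13 ± 0.23) in the nucleus. In the cytoplasm they were those of H3f3c (-2.03 ± 0.28), H2az1 (-0.97 ± 0.08), H2az2 (-0.68 ± 0.11) and H3f3a (-0.68 ± 0.07).

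Summed over the replication-dependent genes, the median ratio of total to poly(A) RNA was lower in CryKO than in WT livers. CryKO livers had 4.04, 5.76 and 7.54 in the nucleus and 2.47, 3.28 and 4.15 in the cytoplasm (WT medians 9.07 and 3.96, overlapping ranges). The fitted genotype difference was above 0 for 3 of 43 replication-dependent genes in the nucleus and 13 of 51 in the cytoplasm (medians -0.88 and -0.69, all genes -0.02 and -0.03). Few single members passed when the difference itself was tested, and many had few poly(A) counts. In the nucleus 4 of 53 members passed an adjusted p under 0.05, against 21.8% of all genes: H3c7, H3c6 and H2ac21 had lower ratios in CryKO (log2 differences of -2.52 ± 0.64, -1.74 ± 0.58 and -1.71 ± 0.60) and H2az1 a higher one (0.47 ± 0.12). In the cytoplasm 2 of 61 passed, H2aj (-1.16 ± 0.25) and H2ac18 (5.45 ± 1.34), against 0.688% of all genes. The H2ac18 value depends on the prior count of the fit, since all 12 CryKO CA libraries were at 0. With the mouse as a block 14 and 5 members passed, against 55.3% and 18.1% of all genes, without H2ac21 in the nucleus and without H2ac18 in the cytoplasm. The NA counts behind H3c7 summed to 26.9 over the CryKO and 16.1 over the WT libraries, so that few reads set its ratio. Without the CryKO mouse ZT12 replicate 1, 2 members passed in the nucleus. In the cytoplasm 1 member passed when any of 15 of the 24 mice was left out, among them WT ZT0 replicate 2, and H2ac18 was then not called.

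Nuclear and cytoplasmic levels were compared on the same scaling, so that values are relative to the other genes of each fraction. In total RNA of WT, 13 of 60 members were lower in the nucleus and 1 was higher, with 11% of all genes called lower and 12.6% higher. H3f3a (-3.46 ± 0.10), H2bc4 (-3.26 ± 0.15), H4c6 (-3.21 ± 0.31), H4c1 (-2.56 ± 0.32) and H4c8 (-2.34 ± 0.18) were among the lowest. H2bc21 was higher in the nucleus (2.08 ± 0.19), with 9.23, 13.1 and 23.7 CPM in NT against 1.56, 3.03 and 5.68 CPM in CT, groups that did not overlap. In CryKO, H2bc21 (2.34 ± 0.20) and H4c9 (2.31 ± 0.19) were higher and 7 of 54 members lower in NT than in CT (12.1% and 11.7% of all genes). The count of lower members was 48 in WT and 42 in CryKO with pre-mRNA counts added, which left H2bc21 in both genotypes and H4c9 in CryKO uncalled, and 27 and 28 at any fold change, but 3 in WT with plain library sizes. H2bc21 was not called in WT without ZT16 replicate 1.

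In poly(A) RNA of WT, 2 of 20 members were higher in the nucleus, against 17.5% of all genes: H4c14 (5.33 ± 0.41) and H2bc8 (3.62 ± 0.50). Both were almost absent from CA, as given above. H2ac19 (-8.51 ± 0.74), H3f3c (-4.33 ± 0.44), H2bc4 (-4.25 ± 0.18), H3f3a (-3.67 ± 0.12) and H2az2 (-2.60 ± 0.15) were lower in NA than in CA, against 12.2% of all genes (29.8% in either direction). In CryKO, H4c14 (5.58 ± 0.35) and H1f3 (2.04 ± 0.62) were higher and 5 members lower, against 16.7% and 11.8% of all genes (28.6% in either direction). Without a filter on low counts 7 members in WT and 11 in CryKO were higher in the nucleus. The higher CryKO count was 4 without ZT4 replicate 1 and 1 without ZT8, ZT16 or ZT20 replicate 2.

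Replication-dependent histone RNA was lower in CryKO than in WT livers in all 3 kinds of total RNA. Summed over the 52 genes, the level was 267, 350 and 542 CPM in CryKO NT libraries against 403, 610 and 984 CPM in WT NT libraries. In CT it was 554, 736 and 891 CPM in CryKO against 1038, 1320 and 2257 CPM in WT, and in UT 429, 493 and 725 CPM in CryKO against 571, 719 and 853 CPM in WT. All 12 CryKO libraries lay below the lowest WT library in CT, as did 11 in UT and 9 in NT, and the ratios of the medians were 0.574 in NT, 0.558 in CT and 0.686 in UT. Leaving out each mouse in turn gave ratios of 0.563 to 0.586, 0.541 to 0.575 and 0.682 to 0.691. In poly(A) RNA the sums were closer, with 39.9, 64.8 and 94.8 CPM in CryKO against 46.2, 65.4 and 97.5 CPM in WT for NA (ratio 0.991), and 185, 241 and 280 CPM against 216, 334 and 628 CPM for CA (ratio 0.720). These sums came mostly from H1 and H2B genes, with WT medians of 24.8 and 28.5 CPM in NA and 85.6 and 230 CPM in CA. The H2A, H3 and H4 medians were 0.275, 0.970 and 7.26 CPM in NA and 11.6, 1.37 and 3.92 CPM in CA. By type the ratios ran from 0.412 (H2A) to 1.23 (H4) in NA and from 0.481 (H2A) to 0.935 (H1) in CA. The summed level of the variant and other genes had ratios of 0.955 in NT, 0.980 in CT and 1.04 in UT. In bulk tissue, fewer cells of a type and less RNA per cell cannot be told apart.

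**Figure D3:**
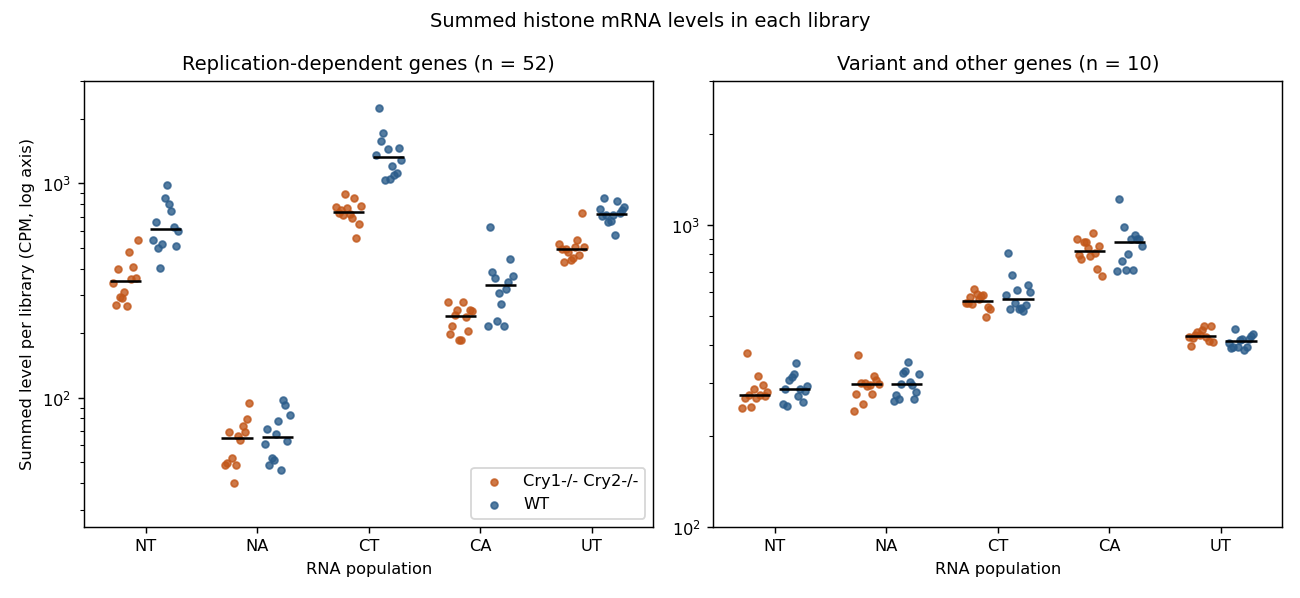
Summed level (CPM, log axis) of the 52 replication-dependent genes (left) and of the 10 variant and other genes (right) in each CryKO and WT library, in order of time within a group, with the median as a bar. In CT the CryKO libraries reached 891 CPM at most and the WT libraries 1038 CPM at least, whereas the variant and other genes overlapped in every population.

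Gene by gene, 33 of 43 replication-dependent genes tested were lower in CryKO at an adjusted p under 0.05 in NT, 47 of 51 in CT and 35 of 51 in UT, with median log2 fold changes of -0.97, -1.22 and -0.63. Over all genes, 25.6%, 20.7% and 28.1% were lower and the medians were -0.03, 0.02 and -0.03. The only replication-dependent gene higher in these 3 populations was H2bc21 in UT (0.38 ± 0.13), with 21.8%, 19.2% and 19.9% of all genes called higher. In NA 1 of 13 was lower, H2bc4 at -0.92 ± 0.18, against 9.72% of all genes, and no member of 23 was higher (7.23% of all genes; 6 of the 23 members had an unadjusted p under 0.05 in either direction, and DESeq2 called 2 higher). Over all genes in NA, 3743 of 11850 had an unadjusted p under 0.05. In CA, H4c9 (-0.94 ± 0.23), H2bc4 (-0.75 ± 0.15), H3f3c (-0.56 ± 0.18) and H2az2 (-0.52 ± 0.14) were lower and H1f0 higher (0.28 ± 0.10), 4 and 1 of 16 members against 18.4% and 17.8% of all genes. With plain library sizes, which moved the median of all genes to 0.36, 1 member was lower and 6 were higher in CA. H1f0 was not called there without any of 7 mice (CryKO ZT4, ZT16 or ZT20 replicate 1, CryKO ZT8 or ZT12 replicate 2, WT ZT4 replicate 1 or WT ZT12 replicate 2). The higher CA count was 2 without CryKO ZT0 replicate 2, CryKO ZT16 replicate 2, WT ZT0 replicate 2 or WT ZT8 replicate 2. The lower NA count was 2 without CryKO ZT20 replicate 2, CryKO ZT4 replicate 2 or WT ZT20 replicate 1 and 3 without WT ZT4 replicate 2, the higher NA count was 2 without CryKO ZT0 replicate 1 or WT ZT8 replicate 2 and 1 without CryKO ZT8 replicate 1, CryKO ZT16 replicate 2 or WT ZT0 replicate 2, and 3 members instead of 1 were higher in NT without WT ZT8 replicate 2.

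The H3 genes had the lowest levels in CryKO relative to WT. Their summed level had ratios of medians of 0.278 in NT, 0.350 in CT and 0.358 in UT, and 7 of 8, 10 of 10 and 10 of 10 H3 genes were called lower. H3c13 was at 0.499, 2.49975 and 4.18 CPM in CryKO against 7.02, 11.03 and 12.9 CPM in WT in NT (-2.22 ± 0.22), and the groups did not overlap. H3c11 had 2.45, 3.21 and 5.59 CPM in CryKO against 6.39, 12.9 and 22.1 CPM in WT in CT (-1.94 ± 0.19), again without overlap, and -2.29 ± 0.35 in NT. H3c6 had 4.81, 6.44 and 10.98 CPM in CryKO against 14.1, 18.03 and 21.7 CPM in WT in UT, with all CryKO libraries below all WT libraries (-1.40 ± 0.10). The other H3 genes with the lowest values were H3c1 (-1.80 ± 0.28 in NT), H3c2 (-2.20 ± 0.29 in CT), H3c3 (-1.89 ± 0.33 in UT) and H3c4 (-1.83 ± 0.26 in UT), and H3c6 was at -1.85 ± 0.18 in NT. H3c10, at -1.999 ± 0.21 in UT, shares 93.7% of its windows with other transcripts, H3c11 shares 81.8%, H3c13 79% and H3c6 65.2%.

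The H2A, H4, H1 and H2B sums had ratios of 0.498, 0.617, 0.656 and 0.670 in NT, of 0.580, 0.4998, 0.698 and 0.605 in CT and of 0.588, 0.681, 0.707 and 0.783 in UT. H2ac13 had the most negative single value, -2.45 ± 0.57 in CT, with -1.83 ± 0.66 in NT and -2.41 ± 0.69 in UT, but 89.7% of its windows are shared and its median in CryKO UT was 0 CPM. H2ac12 (-2.18 ± 0.46) and H2ac10 (-2.15 ± 0.41) followed in CT, both with shared windows. H4c8, the most abundant H4 gene per length, had 56.1, 87.5 and 113.5 CPM in CryKO against 129, 162 and 278 CPM in WT in CT (-1.003 ± 0.11). H4c4 had 43.6, 59.4 and 80.02 CPM in CryKO against 87.1, 126 and 182 CPM in WT (-1.07 ± 0.10). Neither H4 gene had overlapping groups. H1f4 was at -0.70 ± 0.14 in CT and H1f2 at -0.30 ± 0.12, both called, but H1f2 was not called with plain library sizes, with pre-mRNA counts added or without WT ZT0 replicate 2. Among H2B genes H2bc8 was at -1.32 ± 0.15 without overlap and H2bc4 at -0.64 ± 0.11.

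**Figure D4:**
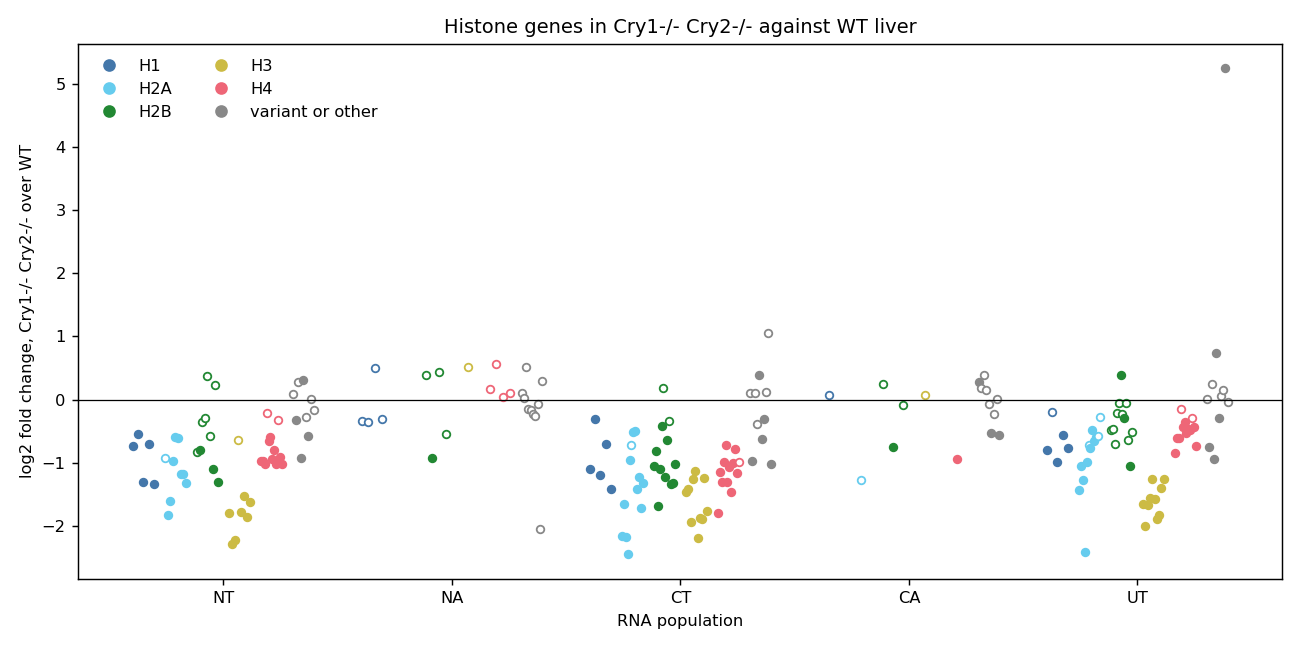
Log2 fold change of CryKO over WT for each histone gene tested in the 5 RNA populations, coloured by type, with 12 libraries per genotype and filled points those called at an adjusted p under 0.05. In NT, CT and UT the replication-dependent genes lay mostly below 0, with the H3 genes, H2ac10, H2ac12 and H2ac13 lowest in UT, while few were tested in NA and CA.

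Variant genes moved in either direction. H2az1 was higher in CryKO in NT (0.30 ± 0.10), CT (0.39 ± 0.08) and UT (0.74 ± 0.08). In UT it had 33.8, 38.4 and 49.6 CPM in CryKO against 17.2, 23.1 and 31.1 CPM in WT, with no overlap. Its NT value was -0.064 when pre-mRNA counts were added. H2az2 was lower in CT (-0.63 ± 0.08) and UT (-0.29 ± 0.08), H2ax in NT (-0.92 ± 0.22) and UT (-0.93 ± 0.16), and H2aj in NT, CT and UT (-0.32 ± 0.08, -0.97 ± 0.12 and -0.76 ± 0.11). H3f3a was lower in NT (-0.58 ± 0.11) and CT (-0.31 ± 0.08). H3f3b was at 0.01 ± 0.08, 0.12 ± 0.08 and 0.15 ± 0.07 in NT, CT and UT and H1f0 at 0.10 ± 0.11, 0.10 ± 0.10 and 0.01 ± 0.06, and neither was called. H3f3c had 0.257, 4.03 and 6.32 CPM in CryKO against 0, 0.00018 and 0.612 CPM in WT in UT (5.25 ± 0.66), a value that depends on how reads are split with H3f3a.

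Genes that act on histone mRNA ends did not move one way. Of 24 genes for histone mRNA processing, translation and decay, 7 were higher and 7 lower in CryKO CT libraries and 5 were higher and 8 lower in UT, where 19.2% and 20.7% of all genes in CT and 19.9% and 28.1% in UT were called higher and lower. Slbp itself was higher in both (0.50 ± 0.09 and 0.46 ± 0.09), while Mif4gd, a partner of SLBP in translation, was lower (-0.53 ± 0.11 and -0.59 ± 0.10), as was Lsm1, of the decay machinery, in CT (-0.75 ± 0.11). None of these genes was called between total and poly(A) RNA in either genotype. Of the genes of S phase and division in the table, 11 of 25 were lower and 1 higher in CT and 10 were lower and 2 higher in UT, with medians of -0.37 and -0.34, against the same shares of all genes. Cdt1, a licensing factor of replication origins, was at -1.23 ± 0.16, E2f1, an activator of S-phase genes, at -1.03 ± 0.11, the helicase subunit gene Mcm6 at -0.81 ± 0.15 and Ccne2, encoding a cyclin E, at 1.39 ± 0.39 in UT. The summed level of this list was 125, 136 and 152 CPM in CryKO against 138, 158 and 201 CPM in WT UT libraries. Its part in the histone result was not tested.

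Histone chaperones, which carry histones to and from DNA, were higher for 6 and lower for 2 of 19 genes in CT and higher for 3 and lower for 6 of 20 in UT. Other RNAs without a poly(A) tail, among them small nucleolar RNAs and the RNA of telomerase, are on the same side as histone RNA in the selection. In WT, 67 of 72 were higher in total RNA in the nucleus and 16 of 17 in the cytoplasm (medians 7.05 and 8.49). Of all genes, 2.82% and 3% were called higher. As with the histone genes, RNAs nearly absent from poly(A) libraries could pass the filter only through the total libraries and had to differ. How many did is not given here, so the counts and medians of these RNAs are a description. Between genotypes, however, 43 were higher and 12 lower in CryKO among 89 tested in NT, and 25 higher and 7 lower among 53 in UT, whereas 19 of 25 were lower in CT (in NT, 21.8% of all genes were called higher and 25.6% lower). The shares of all genes given for each population also stand beside the counts of chaperones and markers. Of the markers of other liver cells, all 4 endothelial genes were higher in UT, with a summed level of 303 to 439 CPM in CryKO against 203 to 335 CPM in WT. All 4 stellate cell genes were lower in CT, with 121 to 207 CPM in CryKO against 180 to 338 CPM in WT. Of 5 hepatocyte genes 3 were lower in UT, with sums of 71366 to 117328 CPM in CryKO against 26297 to 98153 CPM in WT. Of the other lists, the cholangiocyte, lymphocyte and erythroid genes had at most 1 gene lower in each population. Of 5 Kupffer cell genes 2 were lower in NT, NA and CA and 1 in CT, while 1 was higher in UT, with 223 to 467 CPM in CryKO against 212 to 648 CPM in WT. The part of these cell types in the histone result was not tested.

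Over the day, few histone genes passed a test for a 24 h rhythm. In WT, 8 of 62 members passed in CT (10.7% of all genes), 4 of 61 in UT (10.6%), 2 of 18 in CA (2.96%), 1 of 58 in NT (1.92%) and none of 24 in NA (2.24%; 8 at an unadjusted p under 0.05, 5 by DESeq2). Over all genes, 1943 of 11863 had an unadjusted p under 0.05 in NA of WT. The share of members was near that of all genes in CT and NT, lower in UT, and higher in CA on 2 genes. H1f2 in CT averaged 169.6, 154.2, 108.5, 94.05, 107.2 and 173.7 CPM from ZT0 to ZT20, with a peak-to-trough difference of 0.98 on the log2 scale. In CA it averaged 96.7, 79.9, 42.04, 43.2, 88.5 and 129 CPM (1.63). It was thus high around the change from dark to light in both. H3c13 in CT averaged 14.5, 13.7, 13.7, 7.44, 4.32 and 11.2 CPM (1.502), and H2ac20 and H2ac19 had their fitted peaks at ZT4.2 and ZT2.6 (1.16 and 1.10). Most windows of H3c13 and H2ac19 are shared with other transcripts, as given above. H1f3, H2bc4 and H4c9 also passed in CT, with fitted peaks at ZT1.2, ZT23.8 and ZT21.6. H3f3c had the widest range in CT (8.61), from values at or near 0 CPM at ZT0 and ZT4 to 20.3 CPM at ZT16, with the same doubt about its reads.

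**Figure D5:**
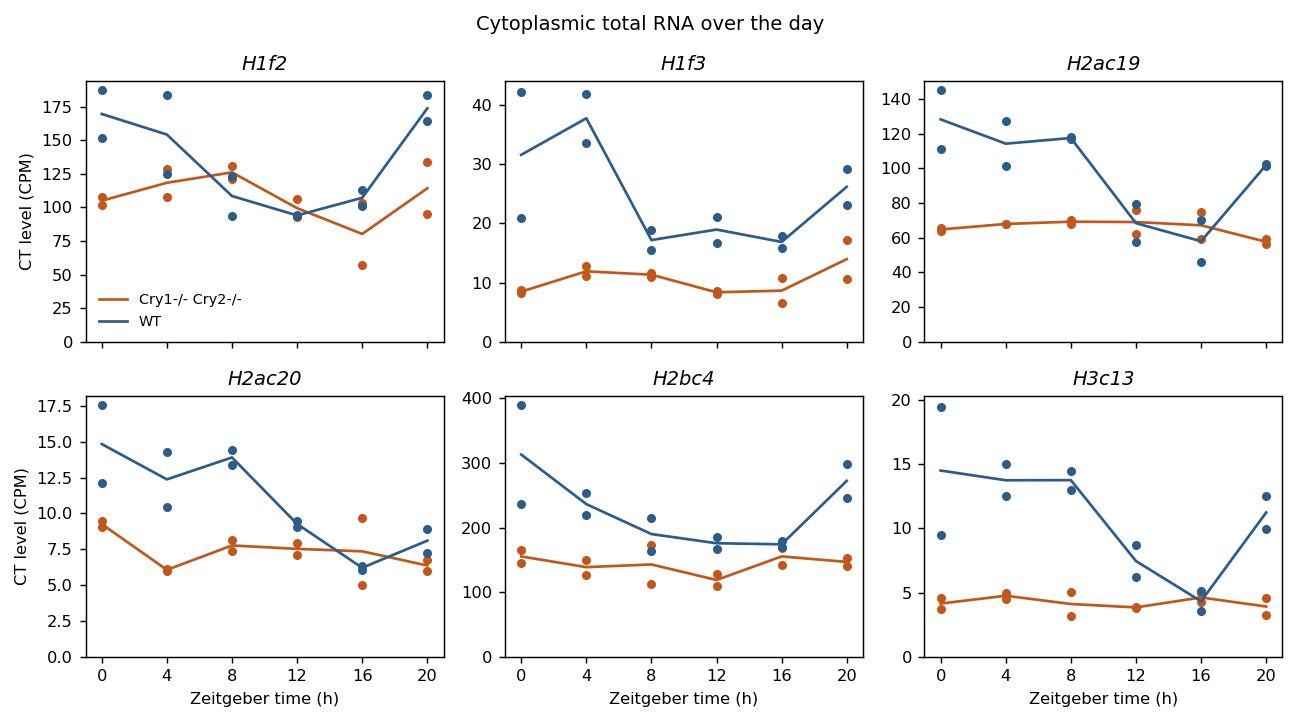
Levels (CPM) in CT of 6 histone genes over the day, with 2 CryKO and 2 WT livers per time as points and their mean as a line. In WT the levels were lowest at ZT12 or ZT16 for these genes, which had passed the rhythm test in WT, and the CryKO levels were lower at most times.

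In UT the genes that passed were H2bc4 (0.59, peak ZT21.0), H4c1 (1.67, ZT19.2), H2ac18 (1.92, ZT4.3) and H3c15 (2.33, ZT21.1). H3c15, with the shared windows given above, also passed in CA (3.28). Its UT call was lost without a filter, with pre-mRNA counts added and without most of the mice, and its CA call without 8 mice, WT ZT0 replicate 2 among them in both. H4f16 passed in NT, with means of 4.71, 6.19, 9.75, 17.2, 7.30 and 5.92 CPM (1.63, peak ZT11.4). In CryKO no member passed in any population, against 0.0174% of all genes in NT, 0.0169% in NA, 0.00876% in CT, 0% in CA and 0.0512% in UT. At an unadjusted p under 0.05 there were 10 of 44 members in NT, 7 of 23 in NA, 3 of 59 in CT, 2 of 16 in CA and 8 of 58 in UT, and DESeq2 called 1, 3 and 2 in NT, NA and UT. Over all genes, 1040 of 11462 in NT, 1435 of 11831 in NA, 1008 of 11412 in CT, 731 of 11338 in CA and 1484 of 11710 in UT were under 0.05. The DESeq2 counts stand without a share of all genes. A difference in rhythm between genotypes was not tested. The CT count in WT was 3 without ZT12 replicate 1, ZT16 replicate 1 or ZT16 replicate 2, 4 without ZT4 replicate 2 or ZT8 replicate 2, and 5 without ZT0 replicate 2 or ZT8 replicate 1. The NT count was 0 without ZT0 replicate 1, ZT8 replicate 2 or either ZT12 mouse and 3 without ZT0 replicate 2 or ZT4 replicate 1. The NA count was 2 without ZT20 replicate 1 and 1 without ZT4 or ZT8 replicate 1, and the CA count was 1 without any of the ZT8, ZT12 or ZT16 mice or ZT20 replicate 1.

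Within WT UT libraries the levels per length, in CPM per kb, put H2ac19 first among the H2A genes (median 195, range 152 to 249) and H4c8 first among the H4 genes (151, 131 to 183). H3f3a had 122 (93.3 to 133), H2bc4 102.6 (73.2 to 129), H3f3b 84.6 (75.3 to 110), H1f0 57.7 (49.9 to 66.7) and H1f2 55.9 (32.95 to 85.7). Neighbours in this order from H4c8 to H1f2 overlapped, apart from H3f3b and H1f0. H3c6 (22.02), H3c13 (18.9) and H3c11 (17.4) led the H3 genes with overlapping ranges. Hist1h4m had 49.1, H4c4 46.9, H1f4 31.8, H2ac20 17.1, H2bc8 13.3, H2ac4 10.1, H2bc3 7.80 and H1f1 3.61. Replication-dependent RNA made up 0.0817% of the mRNA counts in NT of WT (median) against 0.00824% in NA, 0.116% in CT against 0.0202% in CA, and 0.0678% in UT. The genes outside the family whose level over the 12 WT UT libraries was most like the replication-dependent sum were Pm20d2 (Pearson's r of 0.923), Zfp266 (0.895), Sh2d3c (0.875), Gid8 (0.869) and Poglut1 (0.853), of 11667 genes compared, a description over libraries that share mice, depth and scaling.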

How the data were processed

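RNA of mouse liver was measured in 5 populations, NT, NA, CT, CA and UT, from 12 CryKO and 12 WT mice (120 libraries). The authors deposited estimated counts per gene from kallisto 0.46.0 (strand-specific single reads of 65 bases, pre-mRNA and mRNA of GRCm38, with transcripts of low share removed by the authors). Of the gene rows, 131 that repeated the symbol and all values of another row were dropped. The mRNA counts of all 120 libraries were used and rounded to whole numbers. Library sizes were scaled by TMM over all libraries, and CPM refer to the scaled size. Genes with at least 10 counts in 12 libraries (6 for rhythm, which uses 12 libraries) were tested with the quasi-likelihood test of edgeR 4.0.16 in R 4.3.3 with Benjamini-Hochberg adjustment over all genes. SE are the fold change over the root of F. Total was compared with poly(A) RNA and nucleus with cytoplasm at an adjusted p under 0.01 and an absolute log2 fold change above 2, and CryKO with WT (time as factor), rhythm (24 h cosine) and the genotype difference of total over poly(A) at an adjusted p under 0.05. All tests were two-sided. Samples were grouped by the labels. Nothing says that the 2 mice per time came from separate cages or days, and p-values measure the spread between these livers.

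DESeq2 1.42.0, plain library sizes, no filter, summed pre-mRNA and mRNA counts, the mouse or the replicate number as block, and leaving out each mouse were alternatives. A filter on UT libraries and TMM within a comparison were added after seeing the data. Same-numbered NT and NA libraries of a mouse deviated together (r from 0.37 to 0.73 in WT and from 0.48 to 0.68 in CryKO), as did CT and CA (0.37 to 0.61 and 0.42 to 0.74), since they come from the same liver. Between nucleus and cytoplasm this was less even. For NT and CT, r ran from 0.02 to 0.55 in WT and from -0.18 to 0.51 in CryKO. For NA and CA it ran from 0.22 to 0.59 and from -0.22 to 0.55. The values do not bear out the pairing of nucleus with cytoplasm at every time. The scripts were tested on simulated data. Lower bounds use a floor of 3 counts over the group. Genes named with values were the 6 highest and 4 lowest of each total against poly(A) comparison, the 3 most abundant of each type per length, those called in the other tests (the 5 with the largest effect where more were called), the variant genes, and up to 4 called genes of a list. Other genes named, such as H4c9 and H2bc21, were chosen after their values were seen. Members and lists were chosen with earlier results of these data known. Intervals cover counting error only.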

Additional observations from a re-analysis of the deposited data

Results flagged for a closer look

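The ratio of total to poly(A) RNA differed between CryKO and WT by the test of the difference itself in 6 members. In the nucleus the log2 differences were -2.52 for H3c7, -1.74 for H3c6, -1.71 for H2ac21 and 0.47 for H2az1. In the cytoplasm they were -1.16 for H2aj and 5.45 for H2ac18. H2ac18 had 0.704, 1.87 and 6.07 CPM in CryKO CT libraries (lowest, median and highest) and 0 in all 12 CryKO CA libraries, against 0, 3.07 and 8.26 CPM in WT CT libraries and 0, 0.324 and 3.14 CPM in WT CA libraries. Its fitted difference therefore depends on the prior count and is no bound, and its reads are shared with H2ac19. H2aj had 8.35, 12.0 and 14.3 CPM in CryKO CT libraries and 3.96, 6.04 and 10.6 CPM in CryKO CA libraries, against 13.2, 22.8 and 32.3 CPM in WT CT libraries and 1.28, 5.67 and 9.38 CPM in WT CA libraries.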

How the results depend on the processing

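The main counts were those of members or transcripts higher in total RNA and of members lower in the nucleus or in CryKO. Counts of rhythmic members and of members in the test of the genotype difference were main as well. Of these and the ratios of summed replication-dependent levels, 26 values under an alternative other than leaving out a mouse moved and 151 did not. A move was a change by over 1.5 times in a count, or by more than the spread between libraries in a summed ratio. Of the other counts of members, 36 further values moved. Total over poly(A) RNA in CryKO nuclei gave 46 members without a filter and 43 with the UT filter, against 20. Lower members in NT than in CT of WT (13) were 3 with plain library sizes, 48 with pre-mRNA counts added and 27 at any fold change, and in CryKO (7) 42 and 28 under the last 2 of these. Lower members in NA than in CA of WT (5) were 9 without a filter, 8 at any fold change and 8 with the UT filter, and in CryKO (5) 3 with plain library sizes and 8 at any fold change. Higher members in NA (2 each) were 7 in WT and 11 in CryKO without a filter, 7 and 10 with the UT filter, 5 and 4 with plain library sizes, 5 and 7 at any fold change, and 1 in CryKO with DESeq2, with pre-mRNA added or with TMM within the comparison. Higher members in NT (1 in WT, 2 in CryKO) were 3 in WT with plain library sizes, 0 in both with pre-mRNA added and 6 in both at any fold change. For CryKO against WT, the lower NA count (1) was 0 with pre-mRNA added and the lower CA count (4) was 1 with plain library sizes, which moved the median of all genes to 0.36, and 7 without a filter. The higher CA count (1) was 6 with plain library sizes and 2 with DESeq2. DESeq2 also gave 2 higher members in NA, 2 in CT and 5 in UT, against 0, 1 and 3, and plain library sizes 0 in NT and 3 in CT. DESeq2 called rhythms for 3 WT and 1 CryKO members in NT, 5 WT and 3 CryKO in NA, 4 WT in CA, and 7 WT and 2 CryKO in UT, and the replicate block left 1 in CA of WT. With the mouse as replicate block, the genotype difference of total over poly(A) gave 14 members in the nucleus and 5 in the cytoplasm, against 4 and 2, and 1 in the cytoplasm with pre-mRNA added. With the replicate number as block no member was higher in CA of CryKO (H1f0 and H3f3c were lost there, H1f2, H2bc18 and H3c15 in CT, H2ac13, H4c1 and H4c6 in NT and Hist1h4m in UT), H3c15 lost its rhythm in UT and CA, and H1f3 and H3c13 lost theirs in CT. The replicate block changed no other count of calls by over 1.5 times. Same-numbered CryKO and WT livers had correlations from -0.33 to 0.36, so the numbers do not pair the genotypes. Among values called in the main test, those reversed were H2az1 in NT (-0.064) and H2bc4 in NA (0.036) between CryKO and WT with pre-mRNA added. The cause was not tested. Of 4513 values of single genes under alternatives, leaving out a mouse included, 4266 kept their side of the threshold. Direction was compared only for genes called in the main test.

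Leaving out a mouse in turn gave 32 to 34 members higher in NT than in NA and 32 to 38 in CT than in CA of WT, and 18 to 22 and 32 to 33 in CryKO, with 0 to 1 lower in CryKO cytoplasm. NT against CT gave 0 to 1 higher and 9 to 13 lower in WT and 7 to 8 lower in CryKO. NA against CA gave 2 to 3 higher and 4 to 5 lower in WT and 1 to 4 higher and 4 to 5 lower in CryKO. CryKO against WT gave 33 to 40 lower and 1 to 3 higher in NT, 1 to 3 and 0 to 2 in NA, 46 to 51 lower in CT, 4 to 6 and 0 to 2 in CA, and 36 to 40 and 3 to 4 in UT. Rhythmic members in WT were 0 to 3 in NT, 0 to 2 in NA, 3 to 11 in CT, 1 to 3 in CA and 3 to 6 in UT. The genotype difference gave 2 to 6 in the nucleus and 1 to 2 in the cytoplasm. Transcripts gave 31 to 33 and 33 to 39. Counts of 0 to 3 in poly(A) libraries limit the size of single ratios.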
